A study of Mus musculus with 6 samples.

Results

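S100 proteins and annexins are the major families of small calcium sensors and calcium-dependent membrane binders of the cell. Their genes were followed in 6 mouse pancreatic cancer cell lines. The members were every gene whose symbol is S100a plus a number, S100b, S100g or S100z, every Anxa gene with a number other than Anxa10, and the partner genes Ahnak, Cacybp and S100pbp. This gave 30 genes of the 56953 measured: 16 S100 genes, 11 annexin genes and 3 partners. Ahnak2, which the choice also named, was not analysed here.

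The lines KPC142, KPC180, KPC469, KPC490, KPC630 and KPC850 are pancreatic ductal adenocarcinoma cells taken from KPC mice, an engineered mouse model of pancreatic cancer; the labels give no alleles, ages or treatments. The series asks about tumour lines that draw few or many CD8+ T cells, but the labels do not say which line belongs to which class, so no line was put in a group. Each line had 1 RNA library, made with a stranded kit for polyadenylated mRNA. Without replicates, every difference below is between libraries: its interval covers counting error and not the variation of a line from culture to culture.

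S100 proteins are short dimers built from EF-hands, helix-loop-helix calcium sites. Calcium binding opens a surface that grips target proteins inside the cell, and some members are also released and act on receptors such as RAGE and TLR4. Annexins bind acidic phospholipids when calcium rises, and serve in vesicle traffic, membrane repair and the shaping of the cortical cytoskeleton. The families meet in complexes: S100A10 with annexin A2 forms a heterotetramer at the plasma membrane that binds plasminogen and its activator and anchors AHNAK, and S100A11 binds annexin A1. In pancreatic cancer several members, S100A4 and annexin A2 among them, are studied for their link to invasion.

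Promoter sequences are shown for the 2 genes by which the module was marked, S100a4 and Anxa8, and for genes of contrasting range over the lines: S100a6, which varied little, and Anxa11, which varied more than 4-fold. The S100a13 window is shown because S100a1 starts inside it on the opposite strand. Each runs from 250 bases before to 50 bases after a RefSeq start site, 5′ to 3′ on the gene's strand, in build GRCm38.p6. Capitals mark motif matches on either strand in the first 4 sequences: TATAAA in S100a4 (first base at −31 from the start site), CCAAT read on the opposite strand in S100a6 (−228), and in Anxa11 the GC box GGGCGG on the opposite strand 3 times and the E-box CAGGTG on the opposite strand (−79). In S100a13 the capitals are the 104 bases between the start sites of S100a1 and S100a13.
S100a4, chr3:90603520-90603819, plus strand: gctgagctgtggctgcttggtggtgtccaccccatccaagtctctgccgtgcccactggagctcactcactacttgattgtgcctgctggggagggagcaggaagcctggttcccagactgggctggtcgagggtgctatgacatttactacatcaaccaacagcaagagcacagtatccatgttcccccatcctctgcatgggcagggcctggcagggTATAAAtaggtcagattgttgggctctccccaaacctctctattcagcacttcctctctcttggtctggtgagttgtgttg
S100a6, chr3:90612644-90612943, plus strand: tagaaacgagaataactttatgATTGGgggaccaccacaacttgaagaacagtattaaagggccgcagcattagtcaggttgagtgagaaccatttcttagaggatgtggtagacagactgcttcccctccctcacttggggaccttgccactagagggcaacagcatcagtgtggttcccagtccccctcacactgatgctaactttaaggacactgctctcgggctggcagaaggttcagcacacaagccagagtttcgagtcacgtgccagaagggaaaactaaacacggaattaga
Anxa8, chr14:34085729-34086028, plus strand: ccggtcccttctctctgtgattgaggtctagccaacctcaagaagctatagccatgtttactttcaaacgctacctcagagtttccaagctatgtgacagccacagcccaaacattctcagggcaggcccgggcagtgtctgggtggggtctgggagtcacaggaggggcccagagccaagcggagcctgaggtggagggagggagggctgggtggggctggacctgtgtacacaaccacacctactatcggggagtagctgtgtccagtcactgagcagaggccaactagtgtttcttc
Anxa11, chr14:25841905-25842204, plus strand: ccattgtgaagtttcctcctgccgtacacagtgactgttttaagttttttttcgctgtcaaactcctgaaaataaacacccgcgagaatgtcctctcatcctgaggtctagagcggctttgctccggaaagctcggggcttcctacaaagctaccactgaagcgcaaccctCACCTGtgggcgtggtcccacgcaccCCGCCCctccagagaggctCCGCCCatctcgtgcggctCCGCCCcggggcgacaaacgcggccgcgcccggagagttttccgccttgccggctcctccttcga
S100a13, chr3:90514185-90514484, plus strand: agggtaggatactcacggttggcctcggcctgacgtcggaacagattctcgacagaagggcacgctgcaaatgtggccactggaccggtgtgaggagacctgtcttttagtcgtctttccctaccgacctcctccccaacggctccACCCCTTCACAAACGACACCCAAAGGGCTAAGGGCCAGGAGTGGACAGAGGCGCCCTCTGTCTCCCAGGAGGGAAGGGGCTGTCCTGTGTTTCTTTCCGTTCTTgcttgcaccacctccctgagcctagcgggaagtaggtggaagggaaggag
Of 32851 mouse promoters of this length, 13.6% hold TATAAA, 37.4% CCAAT, 35.7% GGGCGG and 20.2% CAGGTG, each on either strand; the AP-1 motif TGANTCA, in 7.81%, was also searched. The Anxa8 window holds none of these 5 motifs. CG dinucleotides numbered 2 in S100a4, 6 in S100a6, 5 in Anxa8 and 25 in Anxa11, against a median of 7 and quartiles of 3 and 20 over all promoters. A motif match is a description of the letters and not a binding site.

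Of the 30 genes, 23 passed the filter on low counts, which 11531 genes of the whole table passed: 9 S100 genes, all 11 annexins and the 3 partners. Levels are read counts scaled to a common library size (CPM) and adjusted for composition. The range of a gene is its highest over its lowest line. Among the 23, 6 varied by at least 4-fold, against 13.2% of all genes that passed. The same 6 genes were counted among the 21 members that reached 10 CPM in a line, where the percent over all genes is 15.4. They were Anxa13, S100a4, S100a14, Anxa8, Anxa11 and S100a16. At the other end, 8 of the 23 varied by less than 2-fold, against 53.3% of all genes that passed. The median range was 2.30-fold over the members and 1.94-fold over all genes that passed, and by family it was 3.12-fold for annexins, 2.60-fold for S100 genes and 1.46-fold for the partners.

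**Figure D1:**
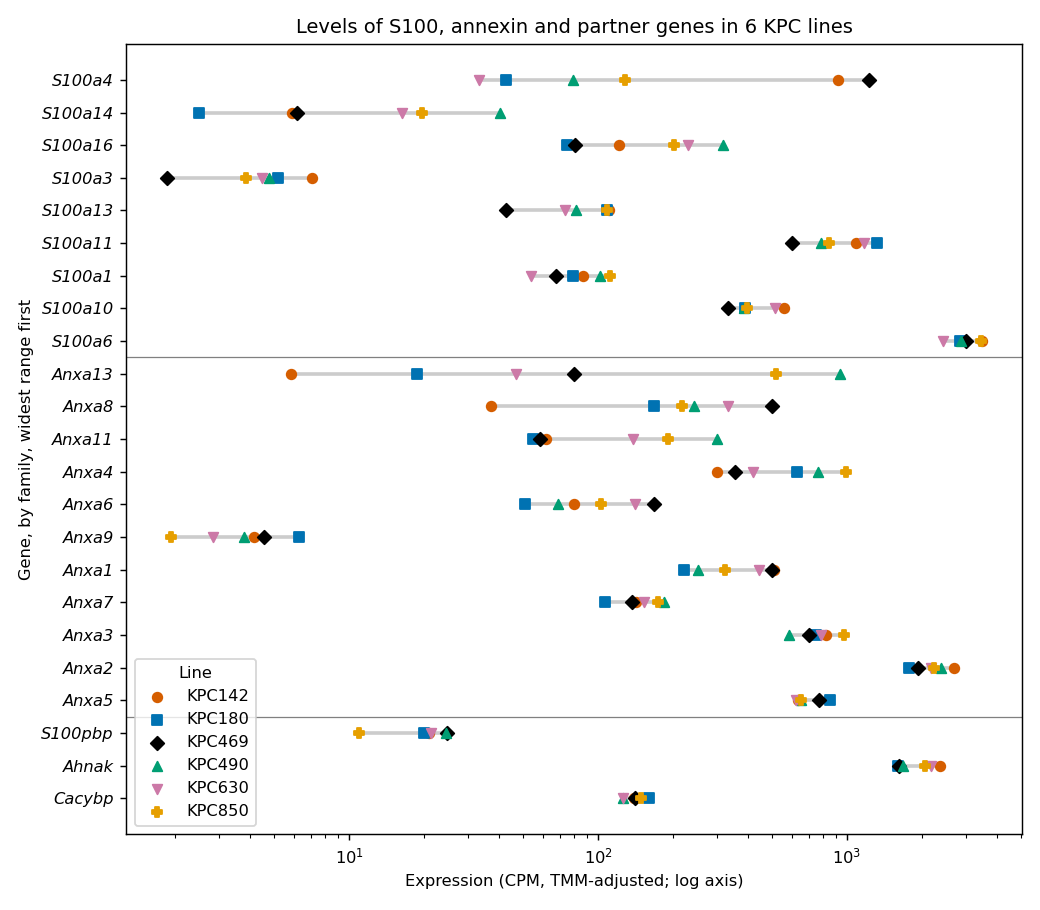
Level of each S100, annexin and partner gene that passed the filter in each of the 6 lines (CPM, log axis); each point is 1 library and genes are ordered within family by range. Anxa13 and S100a4 spread over the widest part of the axis, while S100a6, Anxa2 and Ahnak sit high in every line.

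**Figure D2:**
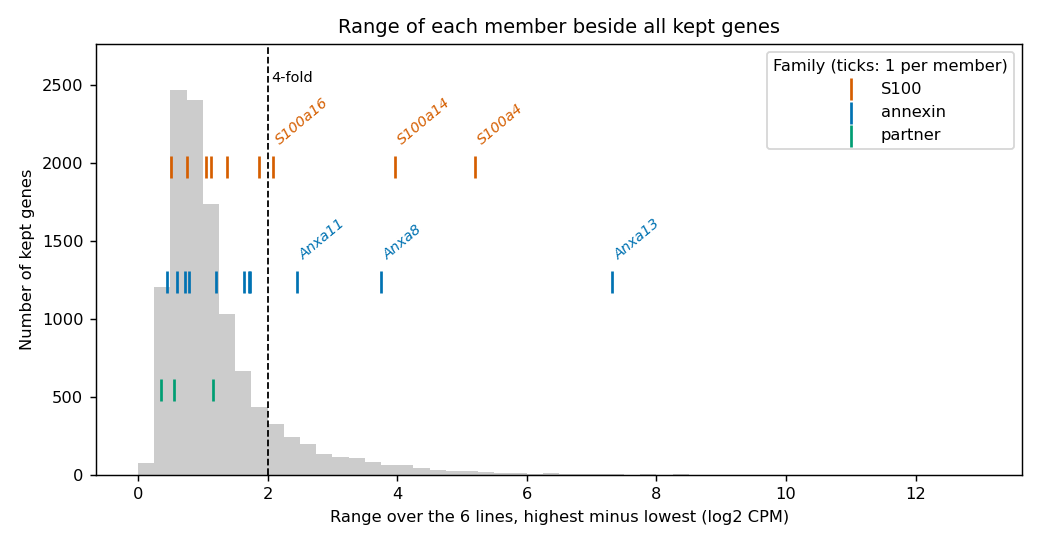
Distribution of the range over the 6 lines (highest minus lowest, log2 CPM) for all genes that passed the filter, with a tick for each member coloured by family. The members' ticks run from Cacybp, the narrowest, to Anxa13, the widest.

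S100a4 had the widest range of the S100 members that passed the filter. Its product, also called metastasin, binds non-muscle myosin IIA and is a marker of motile and mesenchymal cells. S100a4 stood at 1222 CPM in KPC469 and 920.6 CPM in KPC142, then at 127.8 CPM in KPC850, 79.1 CPM in KPC490, 42.7 CPM in KPC180 and 33.3 CPM in KPC630. KPC469 and KPC142 stood apart from the other lines, of which KPC850 was the highest. KPC469 over KPC630 was 36.7-fold (95% counting interval 33.9 to 39.8).

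S100a14, an S100 gene expressed mainly in epithelia, and S100a16 lie next to each other on chromosome 3. S100a14 was at 40.4 CPM in KPC490, 19.5 CPM in KPC850, 16.3 CPM in KPC630, 6.16 CPM in KPC469, 5.87 CPM in KPC142 and 2.49 CPM in KPC180, so that KPC490 over KPC180 was 16.2-fold (11.9 to 22.8). S100a16 was at 316.0 CPM in KPC490, 228.6 CPM in KPC630, 201.2 CPM in KPC850, 121.0 CPM in KPC142, 80.3 CPM in KPC469 and 74.7 CPM in KPC180, a ratio of 4.23 for the same pair of lines (3.97 to 4.50). For both genes KPC490, KPC630 and KPC850 were above the other 3 lines.

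The remaining S100 genes that reached 10 CPM varied less. S100a6, calcyclin, a growth-associated S100 protein, was the most abundant S100 member and ranged over 1.43-fold: 3476 CPM in KPC142, 3464 CPM in KPC850, 3000 CPM in KPC469, 2877 CPM in KPC490, 2831 CPM in KPC180 and 2435 CPM in KPC630. S100a11, the binding partner of annexin A1, was at 1320 CPM in KPC180, 1168 CPM in KPC630, 1089 CPM in KPC142, 849.1 CPM in KPC850, 783.7 CPM in KPC490 and 601.9 CPM in KPC469. Its range of 2.19-fold (2.14 to 2.24) was wider than that of S100a10.
S100a10, whose product joins annexin A2 and does not bind calcium itself, was at 558.9 CPM in KPC142, 512.6 CPM in KPC630, 396.3 CPM in KPC850, 387.9 CPM in KPC180, 384.8 CPM in KPC490 and 332.1 CPM in KPC469, a range of 1.68-fold (1.63 to 1.74). S100a1, best known as a regulator of calcium cycling in heart muscle, was at 111.1 CPM in KPC850 and 53.5 CPM in KPC630, its highest and lowest lines (2.08-fold). S100a13, which takes part in the release of FGF1 that bypasses the secretory pathway, was at 110.9 CPM in KPC142 and 42.7 CPM in KPC469 (2.60-fold). KPC469, the highest line for S100a4, was thus the lowest for S100a10, S100a11 and S100a13.

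S100a3, known from the hair cuticle, passed the filter without reaching 10 CPM, with at most 7.07 CPM (KPC142). The 7 S100 genes that did not pass were at low levels. S100a2 reached 3.32 CPM (57 counts) in KPC850, S100g 1.69 CPM (29 counts) in KPC850, S100a9 0.532 CPM in KPC630 and S100b 0.291 CPM, and S100a5, S100a8 and S100z never exceeded 2 counts in a library. S100a8 and S100a9, which together form the neutrophil protein calprotectin, and S100b, the glial S100, are thus among the genes with next to no reads here. One count was worth 0.0532 to 0.0607 CPM, and a count of 0 allows up to 3 counts.

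Anxa13, an annexin known chiefly from the intestinal epithelium, had the widest range of all members: 939.2 CPM in KPC490 and 519.2 CPM in KPC850, then 80.2 CPM in KPC469, 46.9 CPM in KPC630, 18.7 CPM in KPC180 and 5.81 CPM in KPC142. KPC490 over KPC142 was 161.6-fold (132.4 to 199.4). KPC490 and KPC850 were the high lines, with KPC469 well below.
Anxa8, described from stratified epithelia and as an inhibitor of coagulation, was at 501.5 CPM in KPC469, 333.7 CPM in KPC630, 242.8 CPM in KPC490, 217.2 CPM in KPC850, 167.4 CPM in KPC180 and 37.2 CPM in KPC142. Its range of 13.5-fold (12.4 to 14.6) rests on KPC142, since that line was 4.50-fold below the next lowest. KPC469 and KPC142, the high lines of S100a4, were thus the highest and the lowest line for Anxa8.
Anxa11, whose product has a long disordered head and tethers RNA granules to lysosomes, was at 300.5 CPM in KPC490, 191.5 CPM in KPC850, 137.5 CPM in KPC630, 61.8 CPM in KPC142, 58.4 CPM in KPC469 and 54.9 CPM in KPC180. KPC490 over KPC180 was 5.48-fold (5.10 to 5.88). The 3 high lines were those of S100a14 and S100a16, and the other 3 were nearly equal.

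Anxa4 and Anxa6 varied by more than 3-fold. Anxa4, an annexin of secretory epithelia, was highest in KPC850 at 994.3 CPM and lowest in KPC142 at 300.6 CPM (3.31-fold). Anxa6, the annexin with a doubled core, was highest in KPC469 at 167.0 CPM and lowest in KPC180 at 51.0 CPM (3.28-fold). Anxa1, a glucocorticoid-induced protein that dampens inflammation through formyl peptide receptors, was at 507.6 CPM in KPC142, 498.2 CPM in KPC469, 442.1 CPM in KPC630, 323.7 CPM in KPC850, 251.0 CPM in KPC490 and 220.4 CPM in KPC180 (2.30-fold).
Anxa2, the plasminogen-binding partner of S100A10, was high throughout, at 2682 CPM in KPC142, 2391 CPM in KPC490, 2229 CPM in KPC850, 2170 CPM in KPC630, 1931 CPM in KPC469 and 1777 CPM in KPC180, a range of 1.51-fold (1.49 to 1.53). Anxa3 ran between 971.6 CPM in KPC850 and 585.0 CPM in KPC490 (1.66-fold), and Anxa7, synexin, known for driving the fusion of secretory granules, between 183.9 CPM in KPC490 and 106.4 CPM in KPC180 (1.73-fold). Anxa5, the phosphatidylserine binder used to stain dying cells, had the narrowest range of the annexins, 854.5 CPM in KPC180 and 625.1 CPM in KPC630 (1.37-fold). Anxa9, which passed the filter but did not reach 10 CPM, was at most 6.25 CPM in KPC180.

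Of the 3 partner genes, Ahnak and Cacybp varied by less than 2-fold and S100pbp by more. Ahnak, a giant scaffold that binds the S100A10 and annexin A2 complex, was at 2352 CPM in KPC142 and 1608 CPM in KPC180 (1.46-fold). Cacybp, which links S100A6 to the Siah1 ubiquitin ligase machinery, was at 160.4 CPM in KPC180 and 125.6 CPM in KPC630 (1.28-fold, the narrowest of the 23). S100pbp, named in humans as a binder of S100P, was at 24.6 CPM in KPC469 and 10.96 CPM in KPC850 (2.24-fold), and KPC850 was below every other line, all of which were at 20.03 CPM or more.

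The lines at the top and bottom differed from gene to gene. KPC490, KPC630 and KPC850 were the 3 highest lines for Anxa11, Anxa7, S100a14 and S100a16, 4 of the 23 members, against 7.25% of all genes that passed; this set of lines was picked after the values were seen. KPC142 was the highest line for 7 of the 23, against 19.3% of all genes that passed: Ahnak, Anxa1, Anxa2, S100a10, S100a13, S100a3 and S100a6. Both S100a10 and its partner Anxa2 are among these 7. KPC180 was the lowest line for 8 of the 23, against 16.5%: Ahnak, Anxa1, Anxa11, Anxa2, Anxa6, Anxa7, S100a14 and S100a16. KPC630 was the highest line for 0 of the 23, against 13.5%. No line was named in advance, and these counts are extremes. KPC142 had the most members highest, KPC630 the fewest, and KPC180 the most members lowest. Shares over all genes were not computed for the other lines. Ranks of this kind turn on small gaps where lines lie close, as for S100a6 in KPC142 and KPC850.

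The heterotetramer pair was compared over the 6 lines. S100a10 and Anxa2 had r = 0.646 on log2 CPM (exact permutation p = 0.176, two-sided, adjusted 0.353 over the 2 pairs) and rho = 0.486 (exact p = 0.356, adjusted 0.564). Without KPC142 and KPC630, the lines farthest from the median of S100a10, r was 0.339, and without KPC142 alone it was 0.314. Of the other 11530 genes that passed, 1118 (9.70%) had an r with Anxa2 at least as high. Per kilobase of the longest transcript, S100a10 over Anxa2 lay between 0.786 in KPC630 and 0.536 in KPC490, a spread of 1.47-fold. The longest Anxa2 transcript is 2.28 kb and the median one 0.8735 kb. The level of the ratio thus depends on the transcript used, and its spread over the lines does not.
The relation missed the threshold of the test. S100a11 and Anxa1 also missed it, with r = −0.267 (exact p = 0.610, adjusted 0.610) and rho = −0.314 (exact p = 0.564, adjusted 0.564). Without KPC469 and KPC180, the lines farthest from the median of S100a11, r was 0.933 over the 4 left. Of the other genes, 7965 of 11530 (69.1%) had an r with Anxa1 at least as high. The per-kilobase ratio of S100a11 to Anxa1 was 19.6 in KPC180 and 3.96 in KPC469, a spread of 4.96-fold. Its level carries the same limit, since the longest Anxa1 transcript is 1.674 kb and the median one 0.6185 kb. KPC180 combined the highest S100a11 with the lowest Anxa1, and KPC469 the lowest S100a11 with the second highest Anxa1.

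**Figure D3:**
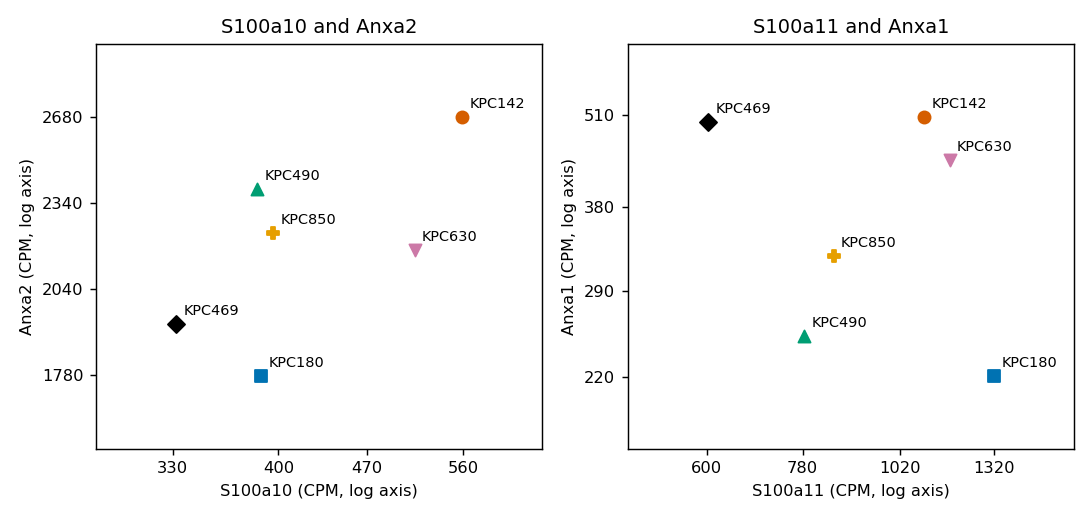
S100a10 against Anxa2 and S100a11 against Anxa1 in the 6 lines (CPM, log axes); each point is 1 library. KPC142 is high for both genes of the first pair, while KPC180 and KPC469 lie at opposite corners of the second.

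The 9 S100 members that passed the filter all lie on chromosome 3, in the order S100a1, S100a13, S100a14, S100a16, S100a3, S100a4, S100a6, S100a11, S100a10. S100a7a, which is not a member, also passed and lies between S100a6 and S100a11. As a description over the 6 lines, whose libraries the points share, r was taken between members that follow each other. It was 0.95 for S100a14 and S100a16, 0.64 for S100a11 and S100a10, 0.63 for S100a4 and S100a6 and 0.53 for S100a1 and S100a13. For the other pairs it was 0.26 for S100a16 and S100a3, −0.06 for S100a13 and S100a14, −0.26 for S100a6 and S100a11 and −0.34 for S100a3 and S100a4. The value of 0.95 is not particular to neighbours. S100a14 had r = 0.96 with Anxa7 and 0.96 with Anxa11, which lie on chromosome 14.
S100a1 and S100a13 face away from each other with 104 bases between their RefSeq start sites, shown in capitals above. Their orders differed: S100a1 was highest in KPC850, S100a13 in KPC142. S100a7a, which was looked at after its values were seen, varied more than any S100 member, with 208.0 CPM in KPC630 and 2.89 CPM in KPC469 (72.01-fold). KPC630 was the lowest line of S100a4 and KPC469 its highest.

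**Figure D4:**
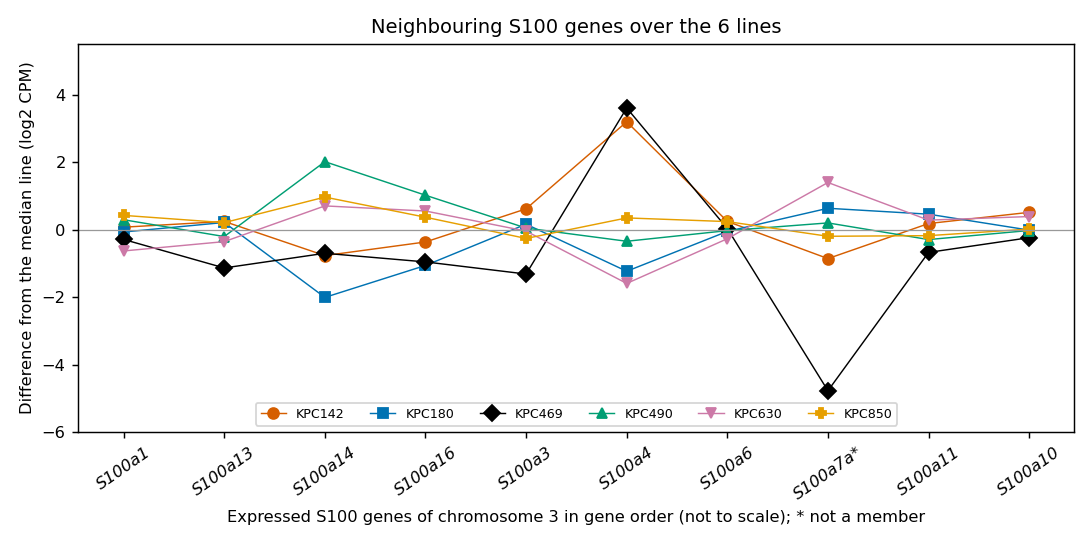
Difference of each expressed S100 gene of chromosome 3 from its median over the lines (log2 CPM), in gene order and not to scale, with a line drawn for each library; the asterisk marks S100a7a, which is not a member. S100a4 in KPC469 and KPC142 is the widest departure upward among the members.

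Compared per kilobase of the longest transcript, the families rest on few genes. Of 11400 genes with a length, S100a6 ranked 4 by median level, S100a11 12, Anxa2 42, S100a10 85, Anxa3 110 and Anxa5 139. S100a6, S100a11 and S100a10 made up 67.1% to 94.0% of the summed S100 level per kilobase. S100a4 added 30.0% of it in KPC469 and 19.2% in KPC142, against 1.01% in KPC630. Anxa2, Anxa3 and Anxa5 made up 53.5% to 79.0% of the annexin level, and Anxa13 added 23.4% in KPC490 and 13.3% in KPC850, against 0.186% in KPC142. Anxa8 was 10.1% in KPC469 and 0.759% in KPC142.
Summed in CPM, the S100 genes ranged over 1.41-fold, at 6380 CPM in KPC142 and 4527 CPM in KPC630, which is 0.455% to 0.646% of a library's reads. The annexins ranged over 1.38-fold, at 6384 CPM in KPC490, nearly equal at 6380 CPM in KPC850, and 4636 CPM in KPC180. Which of KPC490 and KPC850 was highest changed with the scaling: KPC850 was highest on library totals alone, with median-of-ratios factors and per kilobase of the median transcript.

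**Figure D5:**
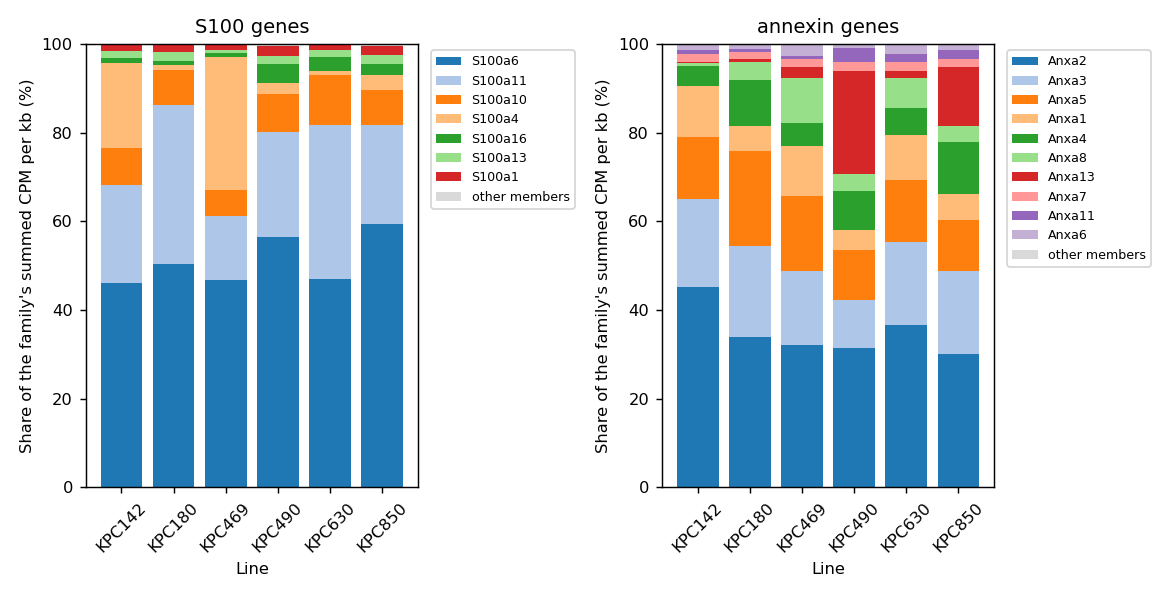
Share of the summed CPM per kilobase of the S100 genes and of the annexin genes taken by each leading member, in percent, for each line; bars stack to 100. S100a4 takes a broad band in KPC469 and KPC142, and Anxa13 in KPC490 and KPC850.

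Of the receptors of S100 proteins and annexin A1, 4 of 10 passed the filter, and 2 of those varied by at least 4-fold, where the share over all genes that passed is 13.2%. The counts of the next lists are read against the same share. Tlr4, a receptor of S100A8 and S100A9, was at 43.7 CPM in KPC850 and 4.49 CPM in KPC180 (9.72-fold). Alcam, an adhesion molecule, was at 284.5 CPM in KPC469 and 58.8 CPM in KPC630, Nptn, a receptor of S100A8 and S100A9 in its long form, at 288.7 CPM in KPC469 and 106.7 CPM in KPC142, and Bsg, which binds S100A9, at 502.2 CPM in KPC490 and 308.3 CPM in KPC142. Ager, the gene of RAGE, did not exceed 1.34 CPM, and the formyl peptide receptors Fpr1 and Fpr2 did not exceed 0.381 and 0.0599 CPM.
Of the plasminogen system, which the S100A10 and annexin A2 complex serves at the cell surface, 5 of 8 genes passed, and 3 of the 5 varied by 4-fold or more. Plat, the tissue-type activator, was at 343.6 CPM in KPC180 and 10.2 CPM in KPC469 (33.5-fold), and Plau, the urokinase-type activator, at 18.0 CPM in KPC630 and 3.11 CPM in KPC469. Both were lowest in KPC469, the line with the highest S100a4 and the lowest S100a10. The same line was lowest for genes of other lists too, among them Capn2. The share of all genes lowest in it was not computed, and a link was not tested. Plgrkt, a plasminogen receptor, was at 44.8 CPM in KPC490 and 26.5 CPM in KPC469, and Plg, plasminogen itself, did not exceed 0.0581 CPM.
Membrane repair genes had 1 of 12 at 4-fold or more, Cav1, the caveolar coat protein, at 268.1 CPM in KPC142 and 52.3 CPM in KPC180. Capn2, the large subunit of a calpain protease, was next, at 523.5 CPM in KPC850 and 234.4 CPM in KPC469. Intracellular partners had 2 of 13, both of them non-muscle myosin heavy chains. Myh10 was at 202.1 CPM in KPC180 and 2.51 CPM in KPC850 (80.7-fold), and Myh14 at 70.9 CPM in KPC850 and 12.1 CPM in KPC180 (5.84-fold), with the same lines at opposite ends. Siah1a, the ligase reached through Cacybp, was at 21.8 CPM in KPC469 and 6.41 CPM in KPC850, and Pla2g4a, the phospholipase that annexin A1 inhibits, at 121.1 CPM in KPC180 and 36.8 CPM in KPC630. Over the 8 lists, 12 of 63 genes that passed reached a 4-fold range, against 13.2% of all genes that passed.

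The labelled cell type was checked against markers. All 9 ductal epithelial genes reached 10 CPM in a line, and their sum lay between 12122 CPM in KPC850 and 2916 CPM in KPC469. Markers of T cells summed to at most 1.69 CPM, of endothelium to 2.82 CPM, of fibroblasts to 7.30 CPM (Dcn and Lum at 0 in every line) and of Schwann cells to 7.10 CPM. Myeloid markers summed to at most 141.9 CPM in KPC469, mostly Cd14, with Adgre1 and Mpo at 0 in every line, and acinar markers to at most 21.0 CPM in KPC180. In bulk RNA, fewer cells that express a gene and less RNA per cell cannot be told apart. Library totals lay between 18701274 counts in KPC630 and 16471558 in KPC142.
Some members resemble other genes. S100a4 shares 302 exon bases on the same strand with Gm42674, at 100% identity, and Gm42674 was given 0 counts. Cacybp matches processed pseudogenes at 90.2% to 92.3% identity, with at most 1 count for any of them. Anxa11 matches 2 annotated pseudogenes at 99.7% and 100% identity that were not analysed here, and reads shared with them cannot be told apart from its own. S100a11 has 5 processed pseudogenes above 90% identity, with at most 14 counts in total for any of them, and Anxa9 shares 71 exon bases with Mindy1 on the opposite strand, which reached 175.6 CPM. Whether the counting used strand is not given in the sources used here.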

How the data were processed

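The values deposited by the authors are RSEM expected counts per gene, 1 library for each of 6 lines. Per the submitters' processing notes, Trimmomatic 0.36, STAR 2.7.10b, RSEM 1.3.3 and build GRCm39 were used. Expected counts were rounded to whole numbers and library sizes scaled by TMM in edgeR 4.0.16 (DESeq2 1.42.0 size factors as an alternative). CPM use these sizes. Genes were filtered with filterByExpr without a design, so a gene had to reach the cutoff in every line. Log2 CPM took a prior count of 2.

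The labels give no groups or replicates, so no contrast was tested. Ranges carry exact conditional binomial 95% intervals, which cover counting error only. Pair correlations were tested by exact permutation over 720 pairings, with Benjamini-Hochberg adjustment over 2 pairs. These p-values test whether the levels of the paired genes go together over the lines. Without replicates, variation between lines cannot be told apart from variation between cultures or libraries. Levels per kilobase use the longest GENCODE vM21 transcript. Promoters came from RefSeq and were found for 24 of 30 members. Protein sequences were not used here.

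The members, gene lists and tests were chosen with earlier results of these data known. Named are members with at least 10 CPM in a line, and up to 4 genes per list with the widest range among those at 10 CPM; others are given by highest value. A gene of the plasminogen list is counted but not reported here. The computation was tested on simulated counts.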

Additional observations from a re-analysis of the deposited data

Results flagged for a closer look

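S100pbp in KPC850 lay far from the other 5 lines. It stood at 10.96 CPM there, against 20.03 CPM in the nearest line. The gap to that line was 0.746 of the whole range of the 6 lines on the log2 scale, above Dixon's 95% critical value. Chance flags about 1 in 20 groups, and 23 genes were examined.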

How the results depend on the processing

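The lines have 1 library each, so culture-to-culture variation is unknown, and low S100 genes are limited by depth. Of 178 recomputed values, 152 kept their direction and their side of any threshold, or moved by less than the limit set for a change (1.5 times for a count), 24 moved and 2 reversed. Changing the threshold to 2-fold gave 15 of 23 members, where 53.3% of all genes that passed were below 2-fold. An 8-fold threshold gave 4, against 6 at 4-fold, and every gene with a count gave 9 of 30. The 9 include S100a2, S100a9 and S100g, which are at low counts. For the 8-fold threshold and for every gene with a count, the share over all genes was not computed. Members lowest in KPC490 became 2 under median-of-ratios factors, library totals alone, or every gene with a count, against 1. At 10 CPM the number lowest in KPC850 was 1, against 2. With every gene with a count, the number lowest in KPC469 was 7 against 4, the number highest in KPC630 was 1 against 0, and the number highest in KPC850 was 6 against 3. Shares over all genes were not computed for these changed counts of highest and lowest lines. The S100 sum ratio was 1.48 per kilobase of the longest or the median transcript, against 1.41, and per longest transcript the lowest line was KPC490 in place of KPC630. The annexin ratio was 1.46 per longest transcript, 1.28 per median transcript and 1.40 on library totals, against 1.38.

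Leaving out each line in turn gave 4 to 6 members at 4-fold or more. Without KPC142, Anxa8 was lost, without KPC180, S100a16, and without KPC490, Anxa11 and S100a16. Members highest numbered 7 to 8 in KPC142, 4 to 6 in KPC180, 3 to 6 in KPC469, 5 to 8 in KPC490, 0 to 2 in KPC630 and 3 to 7 in KPC850. Members lowest numbered 3 to 4 in KPC142, 8 to 10 in KPC180, 5 to 9 in KPC469, 1 to 4 in KPC490, 4 to 6 in KPC630 and 2 to 3 in KPC850. Shares over all genes were not computed with a line left out, so these counts describe the members only. The r of S100a10 with Anxa2 lay between 0.314 and 0.776. The r of S100a11 with Anxa1 lay between −0.484 and 0.189, and reversed without KPC180 (0.189) and without KPC469 (0.126), with exact permutation p adjusted to 0.742 and 0.792. The cause was not tested. No paired analysis was possible because the labels give no groups and no shared replicate numbers.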

Other observations

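Of genes for calcium entry and stores, 2 of 11 that passed the filter varied by at least 4-fold, a share near the 13.2% of all genes that passed. Atp2a3, a calcium pump of the endoplasmic reticulum, was at 116.8 CPM in KPC850 and 2.96 CPM in KPC490. Itpr2, a calcium release channel, was at 39.1 CPM in KPC490 and 3.38 CPM in KPC850. These lines were thus at opposite ends for the pump and the channel. Orai1, the plasma membrane calcium channel, was at 25.3 CPM in KPC142 and 9.37 CPM in KPC469, and Atp2b1, the plasma membrane pump, at 438.5 CPM in KPC490 and 137.8 CPM in KPC469.

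Of the other EF-hand proteins 0 of 13 that passed varied by at least 4-fold, and of the copines, a further family of calcium-dependent membrane binders, 0 of 3, where the same share is 13.2%. The filter drops genes that are nearly off in 1 line. Among genes that reached 10 CPM in a line, the counts were 1 of 14 and 1 of 4, where the share over all genes is 15.4%. Rcn2, a calcium binder of the endoplasmic reticulum, had the widest range of the 13, at 217.2 CPM in KPC469 and 56.9 CPM in KPC850. Cpne1 was at 177.2 CPM in KPC142 and 55.4 CPM in KPC469. In both lists a gene that did not pass the filter had a single count in KPC142. Cpne8 was at 39.98 CPM in KPC630, 34.3 CPM in KPC850, 25.4 CPM in KPC180, 19.996 CPM in KPC469 and 11.4 CPM in KPC490, while KPC142 had a single count. Gca, the EF-hand protein grancalcin, was at 16.8 CPM in KPC630, 12.6 CPM in KPC850 and 9.06 CPM in KPC490, and low in the other 3 lines, with 0.708 CPM in KPC469, 0.485 CPM in KPC180 and a single count in KPC142. Of the fused S100 and epidermal differentiation genes, whose complex neighbours the S100 cluster, 2 of 12 passed and both varied by at least 4-fold, against 13.2% of all genes that passed. Sprr1a was at 1965 CPM in KPC142 and 231.4 CPM in KPC469, and Ivl at 16.4 CPM in KPC490 and 1.62 CPM in KPC142.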
